A study of Mus musculus with 9 samples.

Results

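Heat-shock and chaperone genes were followed in newly made RNA of mouse CD8+ T cells, the lymphocytes that kill infected or transformed cells. The 54 genes were chosen by symbol, among 37022 genes with a row in the deposited tables, and all 54 were found. They comprise 18 genes of the cytosolic HSP70 system, 9 of the HSP90 system, 8 of the cytosolic chaperonin TRiC, 1 small heat-shock protein gene, 2 heat-shock factor genes, 5 mitochondrial chaperone genes and 11 genes of the endoplasmic reticulum (ER). Cells had been fed 0.2 mM 5-ethynyl uridine, a uridine analogue that enters RNA while it is made, for 30 minutes, and the labelled RNA was captured and sequenced. The series compared T cells under acute stimulation, under chronic stimulation, and under chronic stimulation with an inhibitor of MEK, the kinase that activates ERK, with 3 libraries per group. Its question was how nascent transcription changes in exhaustion, a state in which T cells that meet antigen for long respond poorly. The labels give neither the mouse strain, the manner and length of stimulation nor the inhibitor's name, and they do not say whether the libraries came from separate animals or cultures. The p-values therefore measure only the spread between these libraries, which may be technical.

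Molecular chaperones bind unfolded or newly made proteins and help them fold, assemble or reach degradation. In the cytosol, J-domain proteins pass clients to HSP70, nucleotide exchange factors release them, and HSP90 and TRiC finish the folding of kinases, receptors, actin and tubulin. Heat-shock factor 1 (HSF1) induces many of the cytosolic and some mitochondrial chaperones when unfolded protein accumulates, through repeats of the sequence GAA and its complement, whereas ER chaperones answer to the unfolded protein response. T cells that are activated grow and make protein at a high rate, and many of these genes are known to rise with activation.

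Values below are the authors' gene-body signal after scaling of the libraries (trimmed mean of log ratios). Fold changes are on the log2(signal + 5) scale, ± is limma's standard error, every group has 3 libraries, and a gene is said to be called where limma's adjusted p was under 0.05. Signal was not compared between genes, since the lengths of the counted regions are not given. Depth in reads is unknown. Gene-body signal summed over genes to between 48600000 and 52220000 in every library. The share of that signal on ribosomal RNA-like rows differed between groups, from 19.1 to 22.3% in acute, 34.2 to 40.6% in chronic and 29.0 to 36.1% in MEK-inhibited libraries. All 8 CD8 T cell marker genes passed the filter on low signal, and their summed signal was 28900 to 33600 in acute, 19700 to 21300 in chronic and 24000 to 26500 in MEK-inhibited libraries, with 6 of the 8, Cd8a among them, called lower in chronic than in acute libraries. Of markers of other cells, Cd4 and 1 of 4 B cell, 2 of 5 myeloid, 1 of 4 dendritic, 0 of 2 NK and 0 of 3 erythroid genes passed the filter, and none of these genes was at 0 in every library. The summed B cell markers moved with the groups, at 351 to 437 in acute, 90.2 to 166 in chronic and 85.4 to 227 in MEK-inhibited libraries, and so did Cd4, at 383 to 496, 144 to 344 and 101 to 141. The sums of the others were at most 227 (myeloid), 163 (dendritic), 54.2 (NK) and 29.7 (erythroid). The part of these markers in the results was not tested. Dusp6, a phosphatase gene that depends on ERK, checks the inhibitor: its signal was 2194 to 2772 in acute, 2315 to 2491 in chronic and 193 to 211 in MEK-inhibited libraries. In such bulk libraries, fewer cells of a type and less nascent RNA per cell cannot be told apart.

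Of the 54 genes, 52 passed the filter in the gene body. Between chronic and acute stimulation, 27 of the 52 were called higher and 2 lower (Dnajc7 and Trap1), where 18% of all 15942 genes tested were called higher and 15.9% lower (33.9% in all). Leaving out chronic replicate 2 or 3 changed the count of lower genes to 1 or 4, respectively. The members' median log2 fold change was 0.33, against -0.02 over all genes tested. The cytosolic genes held the largest changes, with 19 of 34 tested called higher, among them all 9 cytosolic genes with a log2 fold change above 1. Of the ER genes 5 of 11 were called higher, with none above 1, and of the mitochondrial genes 2 of 5 were called higher and 1 lower. Chronic libraries lay wholly above acute ones for 27 of the 52 genes and wholly below for 4, where 22.4 and 21.9% of all genes did so.

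With the MEK inhibitor, 23 of the 52 genes were called lower than in chronic libraries and 1, Fkbp5, higher, where 7.65% of all genes were called lower and 9.93% higher (17.6% in all). The median log2 fold change was -0.32, against 0.04 over all genes. Inhibited libraries lay wholly below chronic ones for 28 of the 52 genes and wholly above for 2, where 14.4 and 17.8% of all genes did so. The genes called lower included 16 of 34 cytosolic, 3 of 5 mitochondrial and 4 of 11 ER genes. Both comparisons share the 3 chronic libraries, so they are not independent of each other. Against acute libraries, MEK-inhibited libraries had 10 of the 52 genes called higher and 7 lower, where 14.4% and 11.5% of all genes were called (25.8% in all), with a median of 0.01 against 0.00. The count of lower genes was 4 without MEK-inhibited replicate 2 or 3. Inhibited libraries lay wholly above acute ones for 14 genes and wholly below for 11, where 22.4 and 19.6% of all genes did so. The 10 higher genes were all cytosolic or heat-shock factors, and under this scaling no ER gene was called in either direction. The 7 lower genes were Cct3, Chordc1, Dnaja2, Dnajc7, Hspa4, Hspa9 and Trap1.

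These splits depend on how the libraries are scaled. Scaling to library totals, which include the ribosomal RNA-like rows, moved the median of all genes between chronic and acute libraries by -0.48, and the members' calls became 13 higher and 13 lower of 52, where 6.87% of all genes were then called higher and 42.9% lower. Without the ribosomal RNA-like rows in the totals they were 21 higher and 5 lower, where 13.1% and 23.6% of all genes were called. The 13 genes that stayed higher under library totals were Hspa1a, Hspa1b, Hspa4l, Hsph1, Dnaja1, Dnajb1, Dnajb4, Bag3, Hsp90aa1, Hsp90ab1, Ahsa1, Hsf2 and Hspe1, and all 13 also stayed called when any 1 of the 9 libraries was left out. Under library totals none of the 8 TRiC genes and none of the 11 ER genes was called higher, and 2 and 3 of them, respectively, were called lower, which are smaller shares than the 42.9% of all genes. Of the 52 members 20 went from a positive to a negative log2 fold change. Of these, Canx, Cct7, Hspa5, Ptges3, Stip1 and Tcp1 had been called higher, and Dnajb6 and Hspa9 became called lower. The comparison of MEK-inhibited with chronic libraries depended less on this choice, with 1 member higher and 16 lower under library totals, where 11.1% and 4.65% of all genes were called. Those 16 also stayed called without any 1 library: Hspa1a, Hspa1b, Hsph1, Dnaja1, Dnajb4, Bag3, St13, Hsp90aa1, Hsp90ab1, Chordc1, Hspa9, Hspd1, Hspe1, Hspa5, Dnajb9 and Pdia6. Against acute libraries, the inhibited libraries then had 7 members higher and 26 lower, where 5.99% and 31.1% of all genes were called. The lower ones included 7 of 8 TRiC, 7 of 11 ER and 3 of 5 mitochondrial genes, and 0 genes of these classes were higher. That no ER gene was called in this comparison therefore holds only under the scaling used above. Taking each gene's full extent over its annotated transcripts, 26 members overlap another annotated gene, though the row used may not. Among the 26 tested members without such an overlap, 16 were called higher and none lower in chronic than in acute libraries. With the inhibitor 12 of these were called lower and none higher.

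**Figure D1:**
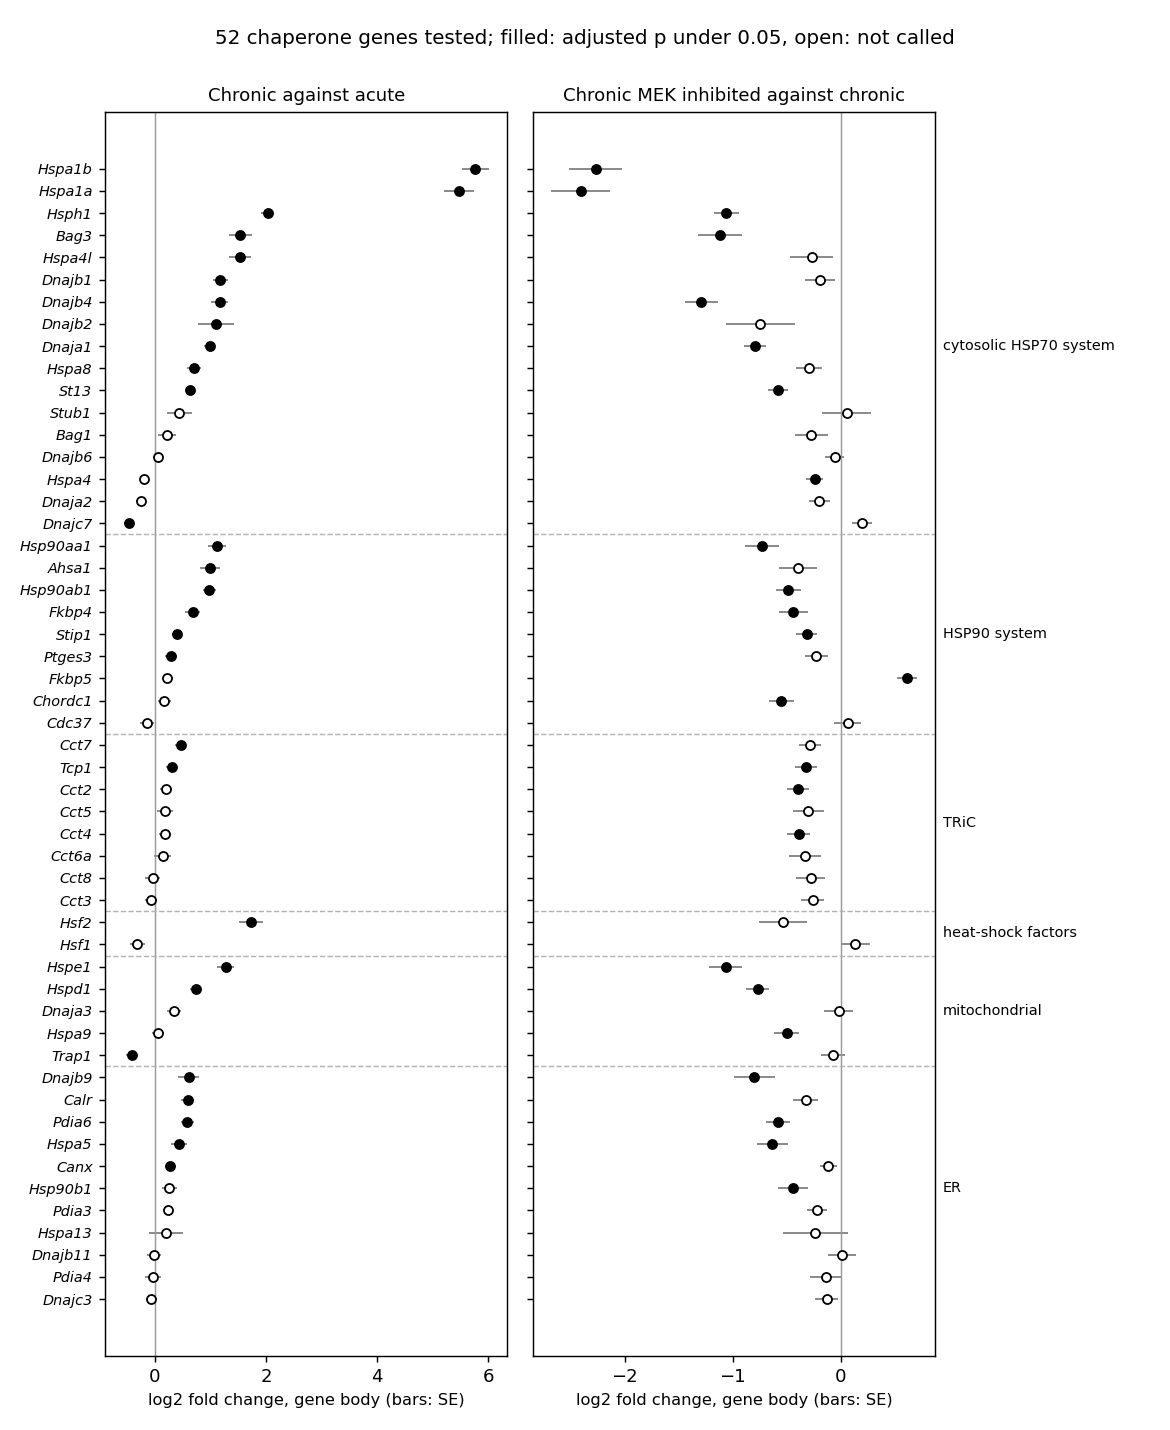
Log2 fold change of gene-body signal (horizontal axis, bars show limma's standard error) of the 52 members tested, by class, between chronic and acute libraries (left) and between MEK-inhibited and chronic libraries (right), 3 libraries per group. Filled points are called at an adjusted p under 0.05; 27 filled points lie right of 0 and 2 left of it in the left panel, and 1 lies right of 0 and 23 left of it in the right panel.

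The inducible HSP70 genes Hspa1a and Hspa1b changed most. They encode near-identical stress-induced HSP70 proteins and lie close together on chromosome 17 of mm10, on the minus strand. Hspa1a (34969190 to 34972156) gave a scaled signal of 35.9, 55.1 and 36.7 in acute, 1525, 2407 and 2427 in chronic and 278, 520.2 and 397 in MEK-inhibited libraries. Hspa1b (34956436 to 34959238) gave 35.2, 41.3 and 49.6 in acute, 1798, 2936 and 3100.2 in chronic and 411, 645 and 539.5 in MEK-inhibited libraries. For both genes the 3 groups did not overlap: every chronic library lay above every MEK-inhibited one, and every MEK-inhibited one above every acute one. Within the chronic group replicate 1 was lowest for both genes. Hspa1a was 44.4-fold higher in chronic than in acute libraries (log2 fold change 5.47 ± 0.27, adjusted p = 3.54e-11) and Hspa1b 54.5-fold (5.77 ± 0.24, adjusted p = 5.81e-12). With the inhibitor they were 5.32-fold (-2.41 ± 0.27, adjusted p = 3.19e-06) and 4.82-fold lower (-2.27 ± 0.24, adjusted p = 2.02e-06) than in chronic libraries. They were still higher than in acute libraries, by 3.06 ± 0.27, adjusted p = 1.17e-07 and 3.50 ± 0.24, adjusted p = 6.75e-09 on the log2 scale.

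How the authors treated reads that fit both genes is not given in the sources used here, and the 2 coding sequences are identical at 99.5% of aligned positions (1919 bases identical, 7 mismatches, 3 gaps), so the split of signal between the 2 genes is uncertain. The row of Gm20481, which overlaps Hspa1a on the opposite strand, changed likewise (log2 fold change 5.35 between chronic and acute libraries), and without knowledge of strand its reads cannot be told apart from those of Hspa1a. Hspa1b overlaps no other annotated gene. Hspa1l, the neighbour that starts on the opposite strand within 1000 bases of Hspa1a and encodes a further HSP70, was not called (log2 fold change -0.25, adjusted p = 0.763).

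The sequences before the 2 starts are shown because the members that moved most share them. They are 250 bases from RefSeq on GRCm38.p6, 5′ to 3′ on the gene's strand, and identical at 247 of 250 positions. Capitals mark the match to a heat-shock element of 2 units (GAANNTTC or TTCNNGAA, either strand), which lies 104 to 97 bases before the start in both.
Hspa1a (chr17:34972157-34972406, minus strand): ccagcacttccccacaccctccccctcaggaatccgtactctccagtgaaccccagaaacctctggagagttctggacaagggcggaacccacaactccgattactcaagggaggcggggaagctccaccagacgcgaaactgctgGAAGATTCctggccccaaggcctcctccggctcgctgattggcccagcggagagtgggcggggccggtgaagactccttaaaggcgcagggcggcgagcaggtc
Hspa1b (chr17:34959239-34959488, minus strand): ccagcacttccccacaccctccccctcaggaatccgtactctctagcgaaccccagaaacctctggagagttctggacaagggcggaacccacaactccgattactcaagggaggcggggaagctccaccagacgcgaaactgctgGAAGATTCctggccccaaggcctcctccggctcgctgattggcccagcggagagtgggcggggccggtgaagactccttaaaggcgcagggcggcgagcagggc

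Such a 2-unit match is common. It occurred in the 250 bases before the start of 14.5% of 27025 RefSeq genes and in 14 of the 46 members with an entry: 7 of 16 in the HSP70 system, 2 of 7 in the HSP90 system, 2 of 7 in TRiC, the small heat-shock gene Hspb1, 2 of 4 mitochondrial and none of 10 ER genes. A 3-unit element (GAANNTTCNNGAA or TTCNNGAANNTTC), which contains 2-unit matches by its construction, occurred in 0.514% of genes and in 3 members, Dnajb6, Hspd1 and Hspe1. Dnajb6, a J-protein, was not called in the gene body (log2 fold change 0.06 ± 0.09, adjusted p = 0.629, between chronic and acute libraries). The E-box CACGTG was found in 7 members and 6.86% of genes. Members with no entry in the promoter table were Hspa8, St13, Hsp90aa1, Hsp90ab1, Cct4, Hsf1, Hspa9 and Hspa13. A match describes the letters only, and binding of a factor was not measured. The sites of further cytosolic members are 30 bases long, with the 2-unit match in capitals. That of Hsph1 overlaps an exon of an annotated coding transcript. Sites are placed by RefSeq starts, which can differ from the start of the transcript whose signal is given. The Dnajb4 site lies inside that transcript (152178511 to 152210279, minus strand). The Dnaja1 transcript starts at 40722922, further downstream than the RefSeq start.
Hsph1 (chr5:149636351-149636380, minus strand): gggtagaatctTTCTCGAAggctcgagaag
Dnaja1 (chr4:40722333-40722362, plus strand): aaaagcctctaGAAAATTCtacgaggctcg
Dnajb4 (chr3:152193846-152193875, minus strand): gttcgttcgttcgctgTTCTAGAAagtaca
Fkbp4 (chr6:128438789-128438818, minus strand): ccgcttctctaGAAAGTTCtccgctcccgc

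**Figure D2:**
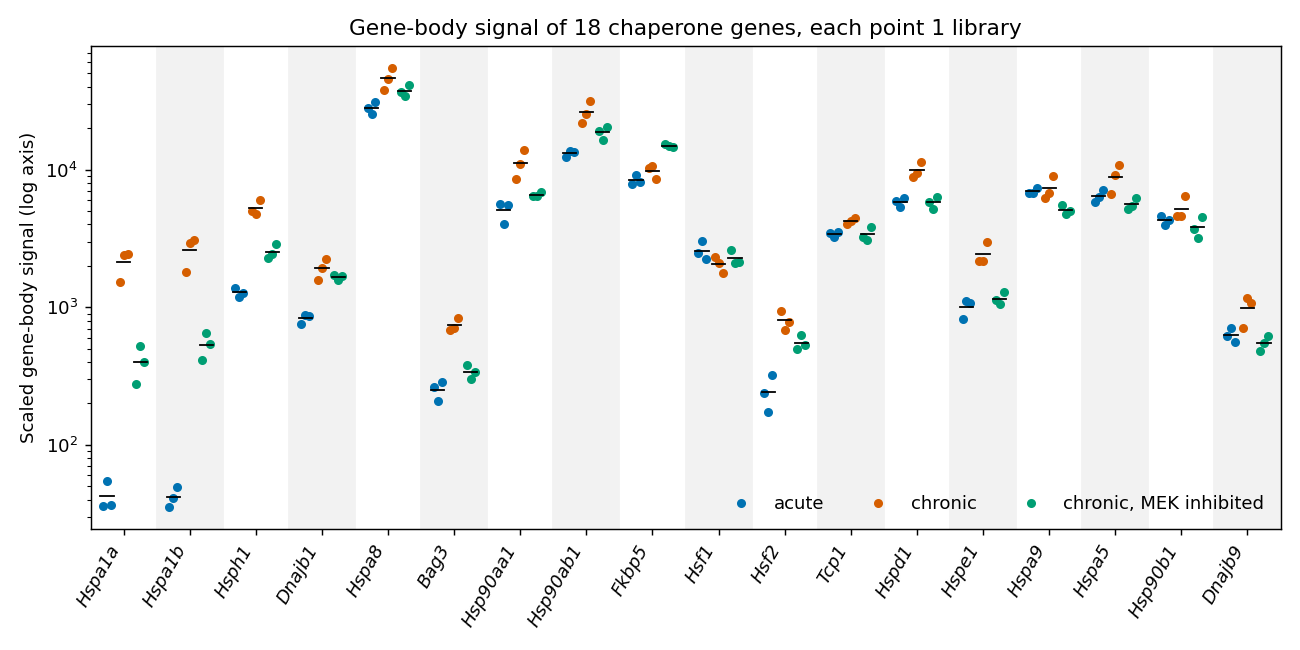
Scaled gene-body signal (vertical axis, log scale) of 18 chaperone genes, with each point 1 library and each bar the mean of 3 libraries, for acute, chronic and MEK-inhibited chronic groups. Hspa1a and Hspa1b lie between 35.2 and 55.1 in acute libraries and between 1525 and 3100.2 in chronic ones, while Fkbp5 is the one gene shown that is highest in every MEK-inhibited library.

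The constitutive HSP70 gene Hspa8, which folds newly made proteins and strips clathrin, moved far less. Its signal was 27933, 25346 and 30878 in acute, 37768, 45807 and 54724 in chronic and 36415, 34250.0 and 41222 in MEK-inhibited libraries. All chronic libraries lay above all acute ones (1.63-fold, log2 fold change 0.70 ± 0.12, adjusted p = 0.000185), but chronic and MEK-inhibited libraries overlapped (-0.29 ± 0.12, adjusted p = 0.109), a difference called without chronic replicate 1 (-0.43, adjusted p = 0.0129). Inhibited libraries were higher than acute ones (0.41 ± 0.12, adjusted p = 0.0169), a call lost without acute replicate 1 (0.35, adjusted p = 0.1) or 2 (0.29, adjusted p = 0.134), or MEK-inhibited replicate 1 (0.38, adjusted p = 0.0747) or 3 (0.34, adjusted p = 0.0962). Under library totals the chronic against acute difference of Hspa8 was not called (0.21, adjusted p = 0.181). The small nucleolar RNA genes Snord14c, Snord14d and Snord14e overlap the Hspa8 gene on the same strand.

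Among the exchange factors of HSP70, Hsph1, Hspa4l and Bag3 rose between acute and chronic libraries, and Hspa4 and Bag1 were not called in that comparison. Hsph1, an HSP110 protein that releases nucleotide from HSP70, gave 1377, 1189.8 and 1274 in acute, 5022, 4784 and 6033 in chronic and 2261, 2450.1 and 2882 in MEK-inhibited libraries. The groups did not overlap, with a log2 fold change of 2.04 ± 0.12, adjusted p = 2.28e-10 in chronic against acute libraries, -1.06 ± 0.12, adjusted p = 2.83e-06 with the inhibitor and 0.98 ± 0.12, adjusted p = 5.34e-06 in inhibited against acute libraries. Hspa4l, another HSP110 protein, gave 283, 333 and 332 in acute, 989.8, 882 and 893 in chronic and 827, 547 and 980.1 in MEK-inhibited libraries. It rose between acute and chronic libraries (1.53 ± 0.20, adjusted p = 7.73e-06), while MEK-inhibited libraries overlapped the chronic ones (-0.27 ± 0.20, adjusted p = 0.421) and stayed above acute ones (1.26 ± 0.20, adjusted p = 9.87e-05). Hspa4, the third HSP110 gene, gave -0.20 ± 0.08, adjusted p = 0.0661 in chronic against acute (called lower without chronic replicate 3, -0.20, adjusted p = 0.0374) and -0.24 ± 0.08, adjusted p = 0.0432 in inhibited against chronic libraries. The last call was lost when either of chronic replicates 1 or 2 or any MEK-inhibited library was left out, for example -0.24, adjusted p = 0.122 without MEK-inhibited replicate 2. In inhibited against acute libraries Hspa4 was called lower (-0.44 ± 0.08, adjusted p = 0.000426). That call stayed when any 1 library was left out and under library totals. Bag3, a BAG-domain exchange factor that sends clients to autophagy, gave 262, 209.8 and 285 in acute, 679, 708 and 835 in chronic and 379, 299.6 and 338 in MEK-inhibited libraries, from a gene that 2610306O10Rik overlaps on the same strand. Its chronic libraries lay above all others (1.54 ± 0.20, adjusted p = 9.75e-06, against acute), and inhibited libraries were lower than chronic (-1.12 ± 0.20, adjusted p = 0.000604) and above acute ones without being called (0.42 ± 0.20, adjusted p = 0.143). Bag1, an exchange factor of the same domain type, was not called in any comparison (log2 fold changes of 0.22, -0.27 and -0.05).

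J-domain cochaperones, which deliver clients to HSP70, were split. Dnajb1 gave 758, 873 and 868 in acute, 1566, 1935 and 2235 in chronic and 1723, 1574 and 1678 in MEK-inhibited libraries. Chronic and inhibited libraries overlapped and both lay above acute ones, with 1.18 ± 0.14, adjusted p = 1.87e-06 in chronic against acute, -0.19 ± 0.14, adjusted p = 0.402 in inhibited against chronic and 0.99 ± 0.14, adjusted p = 2.22e-05 in inhibited against acute libraries. Dnajb4 had another pattern, at 579, 496 and 609 in acute, 1258, 1159 and 1378 in chronic and 537, 541 and 466 in MEK-inhibited libraries. Here the inhibited libraries overlapped the acute ones (-0.12 ± 0.16, adjusted p = 0.625) and the chronic libraries stood above both (1.17 ± 0.16, adjusted p = 1.12e-05, against acute, and -1.29 ± 0.16, adjusted p = 7.79e-06, inhibited against chronic). That inhibited libraries stayed high for Dnajb1 and not for Dnajb4 was not tested as a difference between the 2 genes. Dnajb2, a J-protein that binds ubiquitin chains, gave 118, 122 and 176 in acute, 379, 179 and 391 in chronic and 157, 169.7 and 205 in MEK-inhibited libraries. With the inhibitor Dnajb2 was not called (-0.74 ± 0.32, adjusted p = 0.129) unless chronic replicate 2 was left out (-1.11, adjusted p = 0.0215). Chronic replicate 2 lay just above the highest acute library, and the call (1.10 ± 0.32, adjusted p = 0.0123) was lost without acute replicate 1 (1.00, adjusted p = 0.0518), chronic replicate 1 (0.93, adjusted p = 0.0606) or chronic replicate 3 (0.91, adjusted p = 0.0628). Dnaja1, the main farnesylated J-protein of the cytosol, rose by 0.99 (adjusted p = 4.89e-07) and fell with the inhibitor (-0.79 ± 0.10, adjusted p = 1.69e-05), although its gene overlaps Gm6297 and Smu1 on the opposite strand. Dnaja2 and Dnajb6 were not called between chronic and acute libraries (-0.25 and 0.06), though Dnaja2 was called lower without chronic replicate 3 or MEK-inhibited replicate 2 or 3 (-0.27, adjusted p = 0.0414, for the first). In inhibited against acute libraries Dnaja2 was called lower (-0.45 ± 0.10, adjusted p = 0.00174). That call stayed when any 1 library was left out and under library totals. Dnajc7, which links HSP70 with HSP90, was lower in chronic than in acute libraries (-0.47 ± 0.09, adjusted p = 0.000455). It was also lower in inhibited than in acute libraries (-0.27 ± 0.09, adjusted p = 0.0314), a call lost without at least 1 library. The Dnajc7 gene overlaps Cnp and Nkiras2 on the opposite strand. St13, which steadies HSP70 bound to its client, rose by 0.63 (adjusted p = 2.91e-05) and fell with the inhibitor (-0.58 ± 0.09, adjusted p = 0.000162). The ubiquitin ligase Stub1, which tags HSP70 clients, was called in no comparison with all libraries (0.44, 0.06 and 0.50), but without acute replicate 2 it was higher than in acute libraries in both other groups (0.72, adjusted p = 0.0108, in chronic, and 0.72, adjusted p = 0.0145, in inhibited libraries).

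Hspa2, the HSP70 of male germ cells, and Hspb1, a small heat-shock protein, did not pass the filter and were not tested. Hspa2 gave 2.56, 5.24 and 6.12 in acute, 93.6, 10.9 and 91.1 in chronic and 14.4, 6.79 and 34.4 in MEK-inhibited libraries, with 2 of the 3 chronic libraries well above the other 7 libraries. Hspb1 was near the lowest values everywhere, at 8.47 or less in all 9 libraries.

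In the HSP90 system, both cytosolic HSP90 genes rose and then fell with the inhibitor. Hsp90aa1, the stress-inducible form, gave 5626, 4007 and 5559 in acute, 8517, 10964 and 13790.0 in chronic and 6411, 6449 and 6842 in MEK-inhibited libraries. The chronic libraries lay above all others and the inhibited ones above the acute ones, with 1.12 ± 0.16, adjusted p = 0.000103 in chronic against acute, -0.73 ± 0.16, adjusted p = 0.00593 in inhibited against chronic and 0.39 ± 0.16, adjusted p = 0.0953 in inhibited against acute libraries. The last difference was called without chronic replicate 1 (0.39, adjusted p = 0.0306) or 3 (0.39, adjusted p = 0.0478), and with the row of the longest transcript (0.66, adjusted p = 0.00107). Hsp90ab1, the constitutive form, gave 12309, 13733 and 13438 in acute, 21653, 25523 and 31622 in chronic and 18899, 16511 and 20448 in MEK-inhibited libraries. Its 3 groups did not overlap and lay in the same order, with 0.98 ± 0.12, adjusted p = 4.5e-06, -0.48 ± 0.12, adjusted p = 0.00737 and 0.50 ± 0.12, adjusted p = 0.0044, the last of which was lost without acute replicate 1 (0.39, adjusted p = 0.0566).

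Fkbp5, a cochaperone of steroid receptors with a peptidyl-prolyl isomerase domain, was the single member called higher with the inhibitor. Its signal was 7856, 9071 and 8099.8 in acute, 10223, 10585 and 8591 in chronic and 15415, 14895 and 14516 in MEK-inhibited libraries, from a gene that 4 other annotated genes overlap. Acute and chronic libraries overlapped (0.23 ± 0.09, adjusted p = 0.067), and every MEK-inhibited library lay above all of them (0.61 ± 0.09, adjusted p = 0.000102, against chronic, and 0.84 ± 0.09, adjusted p = 1.92e-06, against acute). The chronic against acute difference was called without acute replicate 2 (0.30, adjusted p = 0.0191) or chronic replicate 3 (0.32, adjusted p = 0.00276). Its close relative Fkbp4 was higher in chronic than in acute libraries (0.68 ± 0.13, adjusted p = 0.000513) and, unlike Fkbp5, lower with the inhibitor (-0.44 ± 0.13, adjusted p = 0.0278), though the latter call was lost without chronic replicate 2 (-0.39, adjusted p = 0.107) or MEK-inhibited replicate 2 (-0.31, adjusted p = 0.157).

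Among the other HSP90 cochaperones, Ahsa1, which speeds the ATPase of HSP90, rose by 1.00 (adjusted p = 0.000188), and its gene overlaps Gm47293 on the same strand. Ahsa1 was called lower with the inhibitor when chronic replicate 1 was left out (-0.56, adjusted p = 0.0364). Its rise in inhibited against acute libraries (0.60 ± 0.17, adjusted p = 0.0151) was lost without acute replicate 1 (0.43, adjusted p = 0.125), acute replicate 2 (0.52, adjusted p = 0.0586) or MEK-inhibited replicate 3 (0.54, adjusted p = 0.0705). Stip1, which joins HSP70 to HSP90, rose by 0.40 (adjusted p = 0.00334) and fell with the inhibitor (-0.31 ± 0.10, adjusted p = 0.0317), the latter lost without chronic replicate 2 (-0.29, adjusted p = 0.0964) or MEK-inhibited replicate 2 or 3. Ptges3, the p23 cochaperone, was called at 0.29 ± 0.10, adjusted p = 0.0381, with overlapping groups, and lost this call without acute replicate 1 (0.23, adjusted p = 0.162), among other libraries. Under library totals Stip1 and Ptges3 had negative fold changes (-0.09, adjusted p = 0.593, and -0.20, adjusted p = 0.183). Chordc1, a protein that binds HSP90, did not differ detectably between chronic and acute libraries (0.17 ± 0.12, adjusted p = 0.284) and was lower with the inhibitor (-0.55 ± 0.12, adjusted p = 0.00228). Chordc1 was also lower in inhibited than in acute libraries (-0.38 ± 0.12, adjusted p = 0.0211), a call lost without at least 1 library. The kinase-directed cochaperone Cdc37 was called in no comparison under the scaling used here (-0.13, 0.07 and -0.07).

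TRiC is a ring of 8 different subunits that folds actin and tubulin. Between chronic and acute libraries 2 of the 8 were called higher, Tcp1 and Cct7, near the share of all genes (18%), and the median log2 fold change was 0.18, with a range from -0.07 to 0.47. Tcp1 gave 3444, 3262 and 3522 in acute, 4008, 4200.4 and 4475 in chronic and 3258, 3094 and 3852 in MEK-inhibited libraries. Chronic libraries lay above the other groups (0.31 ± 0.10, adjusted p = 0.0221, against acute, and -0.32 ± 0.10, adjusted p = 0.0331, inhibited against chronic). Both calls for Tcp1 were lost when any 1 of several libraries was left out. The first was lost without acute replicate 1 (0.31, adjusted p = 0.0608), acute replicate 2 or chronic replicate 3. The second was lost without chronic replicate 2 or 3 or MEK-inhibited replicate 1 or 2 (-0.26, adjusted p = 0.153, for the last). The Tcp1 gene also overlaps Acat3 and Mrpl18 on the opposite strand. Cct3 gave 5433, 4559.9 and 5722 in acute, 4619, 4861 and 5454 in chronic and 4487, 3723 and 4298 in MEK-inhibited libraries. Acute and chronic libraries overlapped (-0.07 ± 0.11, adjusted p = 0.649), and inhibited libraries lay below both, called against acute (-0.33 ± 0.11, adjusted p = 0.0312) and not against chronic ones (-0.26 ± 0.11, adjusted p = 0.116) unless acute replicate 2 was left out (-0.32, adjusted p = 0.0274). The first of these was lost without acute replicate 1 (-0.36, adjusted p = 0.0519) or 3, or MEK-inhibited replicate 2 (-0.26, adjusted p = 0.128) or 3. With the inhibitor all 8 subunits had negative log2 fold changes against chronic libraries, from -0.39 to -0.26, of which Tcp1, Cct2 and Cct4 were called, and none under library totals. Cct7 was called as well without any 1 acute library (-0.34, adjusted p = 0.0203, without replicate 2). The call of Cct2 was lost without MEK-inhibited replicate 2 (-0.32, adjusted p = 0.0769), and that of Cct4 without the same library (-0.36, adjusted p = 0.0625) or chronic replicate 3 (-0.29, adjusted p = 0.0528).

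The heat-shock factor genes differed from each other. Hsf2, whose protein can join HSF1 on its sites, gave 240.1, 173 and 319 in acute, 945, 686 and 781 in chronic and 497, 625 and 528 in MEK-inhibited libraries. The groups did not overlap, with chronic libraries highest (1.73 ± 0.22, adjusted p = 7.24e-06, against acute), inhibited ones between (-0.54 ± 0.22, adjusted p = 0.112, against chronic, and 1.19 ± 0.22, adjusted p = 0.000554, against acute) and acute ones lowest. Without acute replicate 2 the inhibitor's difference was called (-0.60, adjusted p = 0.0331). Hsf1, the factor that drives the heat-shock response and that is controlled mainly through its protein, gave 2458, 3048 and 2236 in acute, 2327, 2104 and 1783 in chronic and 2605, 2092 and 2128 in MEK-inhibited libraries. All groups overlapped and no comparison was called (-0.31 ± 0.13, adjusted p = 0.0811, chronic against acute), except that Hsf1 was called lower in chronic libraries without acute replicate 3 (-0.42, adjusted p = 0.036) or chronic replicate 1 (-0.40, adjusted p = 0.0454), and under library totals (-0.80, adjusted p = 0.000189).

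**Figure D3:**
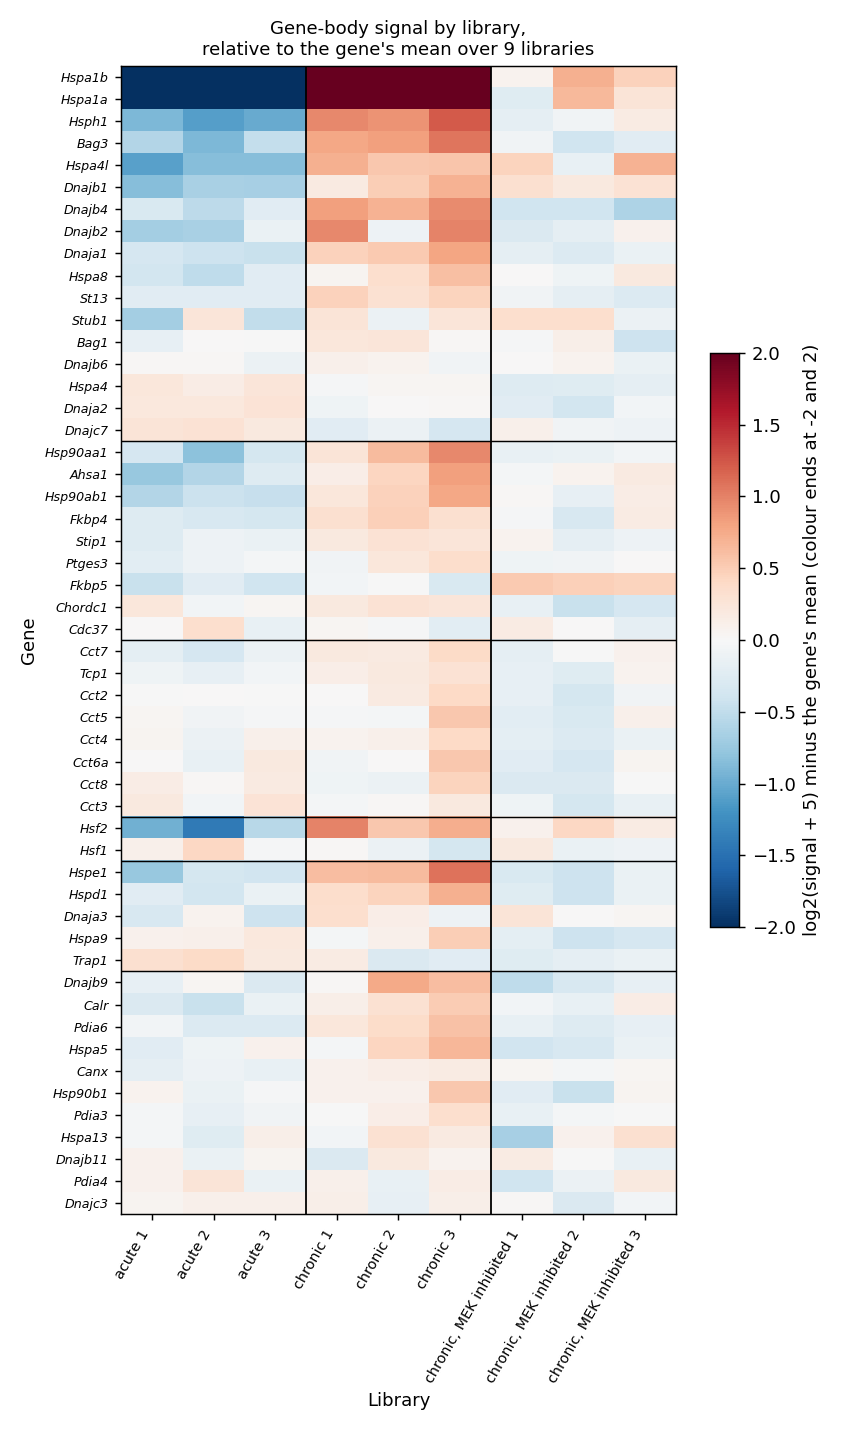
Gene-body signal of the 52 members tested in each of the 9 libraries, as log2(signal + 5) minus the gene's mean over the libraries, with genes in rows by class and libraries in columns (red is above and blue below the gene's mean, and the scale ends at -2 and 2). Chronic libraries are red for most HSP70 and HSP90 genes, with chronic replicate 3 the highest chronic library for 33 of the 52 genes and replicate 1 the lowest for 31.

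The mitochondrial chaperones were divided. Hspd1 (HSP60) and Hspe1 (HSP10), which form the folding chamber of the matrix, start from 1 shared region on chromosome 1 and run in opposite directions. Hspd1 gave 5894, 5368 and 6261 in acute, 8844, 9379 and 11332 in chronic and 5826, 5195 and 6282 in MEK-inhibited libraries. Hspe1 gave 823, 1102 and 1075 in acute, 2159, 2179 and 2966 in chronic and 1131, 1046 and 1280.1 in MEK-inhibited libraries. For both, chronic libraries lay above all others and inhibited libraries overlapped acute ones. Hspd1 rose by 0.75 ± 0.11, adjusted p = 2.03e-05, and fell with the inhibitor (-0.77 ± 0.11, adjusted p = 3.34e-05), and Hspe1 had 1.28 ± 0.15, adjusted p = 2.7e-06 and -1.06 ± 0.15, adjusted p = 4.78e-05. Inhibited and acute libraries differed by -0.02 ± 0.11, adjusted p = 0.919, for Hspd1 and 0.21 ± 0.15, adjusted p = 0.345, for Hspe1. Some annotated transcripts of the 2 genes overlap on opposite strands. The 2 transcripts whose signal is given do not (Hspd1 55077835 to 55088024, Hspe1 55088132 to 55091307). Whether their signals share reads is unknown, since the limits of the counted regions are not given. The site before Hspe1 is shown because it holds the strictest match found: the 3-unit element occurs on it as 2 overlapping matches, 89 to 72 bases before its start (capitals, 30 bases, GRCm38.p6), and overlaps an exon of an annotated coding transcript.
Hspe1 (chr1:55088053-55088082, plus strand): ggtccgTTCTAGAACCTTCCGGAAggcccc

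Hspa9, the HSP70 of the matrix (mortalin), did not follow them. It gave 6702, 6765 and 7337 in acute, 6196, 6766 and 8943 in chronic and 5560.0, 4742 and 5015 in MEK-inhibited libraries. Acute and chronic libraries overlapped (0.06 ± 0.12, adjusted p = 0.737), and all inhibited libraries lay below both (-0.50 ± 0.12, adjusted p = 0.00472, against chronic, and -0.44 ± 0.12, adjusted p = 0.00794, against acute). Trap1, the mitochondrial HSP90, gave 4685, 4906 and 4329 in acute, 4244, 3084 and 3229.5 in chronic and 3174, 3328 and 3451 in MEK-inhibited libraries. Chronic libraries lay below acute ones (-0.41 ± 0.11, adjusted p = 0.00813), a call lost without chronic replicate 2 (-0.32, adjusted p = 0.0565), and inhibited libraries overlapped the chronic ones (-0.07 ± 0.11, adjusted p = 0.752) and were lower than acute ones (-0.48 ± 0.11, adjusted p = 0.00357). Dnaja3, the J-protein of the matrix, was not called with all libraries (0.34 ± 0.13, adjusted p = 0.0529, chronic against acute), but was without acute replicate 2 (0.50, adjusted p = 0.00309) or chronic replicate 3 (0.46, adjusted p = 0.0152). The Dnaja3 gene overlaps Vasn on the same strand and Coro7 on the opposite strand. Trap1 overlaps Gm23413 on the same strand and Dnase1 and Gm49547 on the opposite strand. The part of these overlapping genes in the signal was not tested.

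ER chaperones changed by smaller amounts. Hspa5 (BiP), the HSP70 of the ER, gave 5779, 6351 and 7129.5 in acute, 6592, 9066 and 10727 in chronic and 5151, 5423 and 6175 in MEK-inhibited libraries. Chronic replicate 1 lay below the highest acute library, so those groups overlapped (0.43 ± 0.14, adjusted p = 0.0305), while every inhibited library lay below every chronic one (-0.63 ± 0.14, adjusted p = 0.00576). The rise was lost without acute replicate 1 (0.35, adjusted p = 0.138) or 2 (0.43, adjusted p = 0.0959), or chronic replicate 2 (0.40, adjusted p = 0.101) or 3 (0.28, adjusted p = 0.137), and under library totals Hspa5 stood at -0.06, adjusted p = 0.736. Hsp90b1 (GRP94), the HSP90 of the ER, gave 4587, 3986 and 4284 in acute, 4614, 4607 and 6372 in chronic and 3712, 3202 and 4546 in MEK-inhibited libraries. Chronic libraries lay above acute ones by a margin that was not called (0.26 ± 0.14, adjusted p = 0.153), and inhibited libraries were lower than chronic ones (-0.44 ± 0.14, adjusted p = 0.0335), a call lost without chronic replicate 3 (-0.29, adjusted p = 0.124) or MEK-inhibited replicate 1 (-0.49, adjusted p = 0.0633) or 2 (-0.33, adjusted p = 0.148).

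Dnajb9, an ER J-protein that works with BiP, gave 618, 711 and 563 in acute, 706, 1173 and 1067 in chronic and 484, 553 and 619.7 in MEK-inhibited libraries. Chronic replicate 1 overlapped the acute libraries (0.61 ± 0.19, adjusted p = 0.0197), and inhibited libraries lay below all chronic ones (-0.80 ± 0.19, adjusted p = 0.00628). The rise was not called without acute replicate 1 (0.59, adjusted p = 0.0569) or 3 (0.53, adjusted p = 0.0835), or chronic replicate 2 (0.47, adjusted p = 0.109) or 3 (0.54, adjusted p = 0.0687). Calr, the lectin chaperone calreticulin, gave 2596, 2321 and 2912 in acute, 3454, 3906 and 4505 in chronic and 3066, 2874 and 3510.0 in MEK-inhibited libraries. Its chronic libraries lay above all acute ones (0.60 ± 0.12, adjusted p = 0.000643), and inhibited libraries overlapped both groups (-0.32 ± 0.12, adjusted p = 0.0686, against chronic, and 0.27 ± 0.12, adjusted p = 0.104, against acute). The former difference of Calr was called without any 1 acute library or without chronic replicate 1 (-0.42, adjusted p = 0.0284). Canx, its membrane-bound relative calnexin, rose by 0.27 (adjusted p = 0.0122), lost without acute replicate 1 (0.24, adjusted p = 0.0625).

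Of the disulfide isomerases, Pdia6 rose (0.59 ± 0.11, adjusted p = 0.000449) and fell with the inhibitor (-0.58 ± 0.11, adjusted p = 0.000982). Pdia3 was not called in chronic against acute libraries (0.24 ± 0.09, adjusted p = 0.0568), though it was without chronic replicate 1 (0.32, adjusted p = 0.0184). Pdia4 gave 2104, 2378 and 1819 in acute, 2126, 1796 and 2194 in chronic and 1503, 1838 and 2276 in MEK-inhibited libraries, with all 3 groups overlapping and log2 fold changes of -0.04, -0.14 and -0.18. Dnajb11 and Dnajc3, J-proteins of the ER, and Hspa13 were not called either (chronic against acute -0.01, -0.06 and 0.20).

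The ER stress response element (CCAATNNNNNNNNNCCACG, either strand), is a site known for the unfolded protein response. It occurred in 0.13% of RefSeq genes (35 genes) and in 6 of the 10 ER members with an entry, and in no other member. A second form (ATTGG, any base and CCACG) was found in 10 genes and in no member. The 6 members are shown because the same element preceded genes that were called higher in chronic libraries, Hspa5, Calr, Canx and Pdia6, and genes that were not, Hsp90b1 and Dnajc3. Each site is 30 bases from GRCm38.p6, placed by the RefSeq start, with the match in capitals. Calr carries it on the opposite strand, and Hsp90b1 has 2 matches of which 1 is given. That of Hspa5 overlaps an exon of an annotated coding transcript. It lies inside the Hspa5 transcript whose signal is given, which starts at 34771970.
Hspa5 (chr2:34772020-34772049, plus strand): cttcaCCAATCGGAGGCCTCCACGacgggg
Hsp90b1 (chr10:86705632-86705661, minus strand): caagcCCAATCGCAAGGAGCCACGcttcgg
Calr (chr8:84847069-84847098, minus strand): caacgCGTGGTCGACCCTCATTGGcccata
Canx (chr11:50325794-50325823, minus strand): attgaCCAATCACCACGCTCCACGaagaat
Dnajc3 (chr14:118937822-118937851, plus strand): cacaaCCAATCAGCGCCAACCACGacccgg
Pdia6 (chr12:17266486-17266515, plus strand): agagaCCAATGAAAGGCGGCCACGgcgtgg

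Other genes of these pathways were counted from lists, beside the shares of all genes called in the same comparison: 18% higher and 15.9% lower in chronic against acute, 9.93% and 7.65% with the inhibitor against chronic, and 14.4% and 11.5% in inhibited against acute libraries. Of 19 tested among other HSF1 targets and cochaperones, 10 were called higher and 2 lower in chronic than in acute libraries (median 0.45). The largest rise was that of Dnajb5, a J-protein (mean 651 ± 101 SD in acute and 1701 ± 9.75 in chronic libraries, log2 fold change 1.39), and the falls were Dnajc5 (-0.37) and Dnajc2 (-0.24). With the inhibitor 3 of the 19 were called lower and none higher, and against acute libraries 7 higher and 2 lower. Of 27 genes of the unfolded protein response of the ER, 9 were called higher and 3 lower in chronic libraries (median 0.16). The disulfide isomerase Pdia5 (0.98) and the stress sensor Ern1 (0.92) rose most, and Sil1, which exchanges the nucleotide of BiP (-1.03), and Herpud1, of ER-associated degradation (-0.79), fell most. With the inhibitor 7 of the 27 were called lower and 2 higher.

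None of 17 mitochondrial import and protease partners was called between chronic and acute libraries (median -0.04). Of 31 proteasome genes 4 were called higher, a smaller share than the 18% of all genes, and none lower (median 0.13), with Psma1 (0.79) and Psmc1 (0.48) the largest. Of 8 prefoldin and TRiC assistant genes 1 was called, Pdcl3 (0.90). Immediate early genes that cell handling can induce moved with the heat-shock genes in part and against them in part: of 11 tested, 5 were called higher and 2 lower in chronic than in acute libraries, where 18% and 15.9% of all genes were, and none higher and 4 lower with the inhibitor, where 9.93% and 7.65% were. Ier3 (178 ± 74.1 SD in acute and 1723 ± 406 in chronic libraries, log2 fold change 3.31) and Atf3 (2.19) rose most, and Fos (-3.28) and Egr1 (-0.83) fell. With the inhibitor Ier3 (-1.79, adjusted p = 0.000746), Atf3 (-0.86, adjusted p = 0.000786) and Egr1 (-2.90, adjusted p = 9.41e-07) were lower than in chronic libraries, and Fos was not called (-0.39, adjusted p = 0.749). Their part in the change of the heat-shock genes was not tested.

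In the pause region, the stretch near the start as the second table's name is read here, 43 of the 54 genes passed the filter. Between chronic and acute libraries 9 of the 43 were called higher and none lower, where 5.37% of 7678 genes were called higher and 5.35% lower (10.7% in all). Hspa1b gave a pause-region signal of 12.4, 1.78 and 7.91 in acute, 92.0, 195 and 195 in chronic and 20.2, 23.4 and 41.2 in MEK-inhibited libraries. The groups did not overlap, with 3.77 ± 0.60, adjusted p = 5.64e-05 in chronic against acute libraries, and the gene passed the filter through the chronic libraries alone, so its being tested already required a difference. Hsph1 gave 168, 166 and 188 in acute, 552, 602 and 601 in chronic and 206, 315 and 324 in MEK-inhibited libraries, again without overlap (1.72 ± 0.22, adjusted p = 2.73e-06). Hsp90aa1 gave 290.5, 258 and 364 in acute, 617, 773 and 785 in chronic and 405, 441 and 398 in MEK-inhibited libraries, in the same order (1.25 ± 0.20, adjusted p = 7.11e-05). The other 6 were Hsp90ab1 (1.08), Hspd1 (1.13), Dnajb1 (1.06), Hspe1 (0.84), Hsp90b1 (0.69) and Canx (0.68). Leaving out single libraries ended the calls of Hspe1 (acute replicate 1 or 2, chronic replicate 2 or 3), Hsp90b1 (acute or chronic replicate 3) and Canx (acute replicate 1, chronic replicate 2), with values of 0.55, adjusted p = 0.17, without acute replicate 2, 0.52, adjusted p = 0.121, without acute replicate 3, and 0.57, adjusted p = 0.115, without chronic replicate 2. Under library totals Hspa1b and Hsph1 remained called higher and Cct3, Dnajb6, Dnajb11 and St13 were called lower, against shares of 1.6% higher and 20.8% lower over all genes.

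With the inhibitor 4 of the 43 were called lower in the pause region and none higher, where 1.43% of genes were lower and 1.56% higher (3% in all). They were Hspa1b (-2.29 ± 0.60, adjusted p = 0.0285), Hsph1 (-1.07 ± 0.22, adjusted p = 0.00489), Hsp90aa1 (-0.79 ± 0.20, adjusted p = 0.0243) and Hsp90ab1 (-0.68 ± 0.19, adjusted p = 0.0423), all 4 without overlap of the groups. As Hspa1b passed the filter through the chronic libraries alone, its being tested already required a difference in this comparison too. Each of the 4 lost its call without at least 1 library: without MEK-inhibited replicate 1 none of the members was called (Hsph1 -0.86, adjusted p = 0.08), and without chronic replicate 2 or 3 or MEK-inhibited replicate 2 or 3 a single one was. Against acute libraries 1 of 43, Fkbp4 (1.23 ± 0.36, adjusted p = 0.0394), was called higher, where 3.44% of genes were higher and 2.51% lower (5.95% in all), and it was lost without acute replicate 3 (0.73, adjusted p = 0.269), or MEK-inhibited replicate 2 or 3, while 2 members were called without MEK-inhibited replicate 1. Hspa1a did not pass the filter in this region, at 5.30, 1.19 and 9.88 in acute, 23.0, 126 and 133 in chronic and 6.05, 12.8 and 15.3 in MEK-inhibited libraries.

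**Figure D4:**
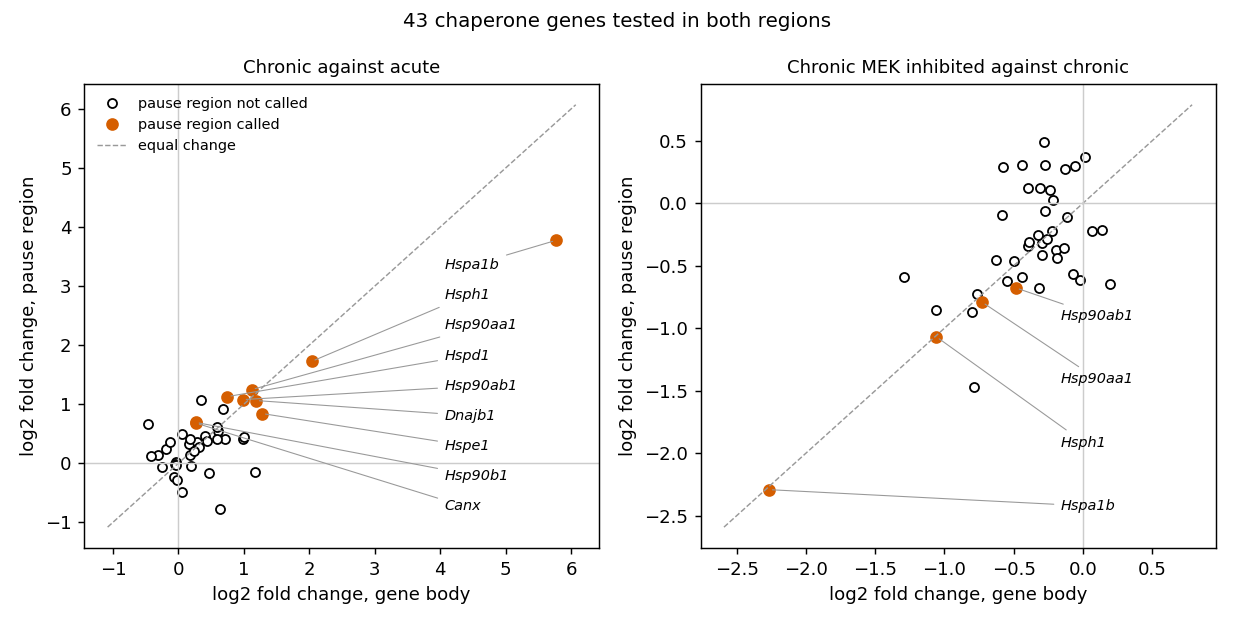
Log2 fold change in the gene body (horizontal axis) against that in the pause region (vertical axis) of the 43 members tested in both, between chronic and acute libraries (left) and between MEK-inhibited and chronic libraries (right). Orange points are called in the pause region, 9 in the left and 4 in the right panel, and the dashed line marks equal change. Hspa1b lies below that line in the left panel, at 5.77 in the gene body and 3.77 in the pause region. Its acute pause-region values (12.4, 1.78 and 7.91) are near the 5 added before taking logs, which shrinks the latter change.

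Whether the pause region changed relative to the gene body was tested for the 43 genes. No member was called by limma in any of the 3 comparisons, where few of the 7413 genes tested were called: 0.445% in chronic against acute (0.108% higher, 0.337% lower), 0% in inhibited against chronic and 0.0809% in inhibited against acute libraries (0.027% higher, 0.054% lower). Without acute replicate 2, 1 member was called in chronic against acute and 1 in inhibited against acute libraries. At an unadjusted p under 0.05 the members numbered 7, 0 and 5, against 11.5, 5.64 and 9.78% of all genes. In chronic against acute libraries the 7 were Canx, Cdc37, Dnajb4, Dnajc7, Hsp90b1, Hspa1b and St13, the change of Hspa1b being -1.995 ± 0.60 (adjusted p = 0.162). The acute pause-region values of Hspa1b (12.4, 1.78 and 7.91) are near the 5 added before taking logs. The added 5 shrinks its pause-region change more than its gene-body change, so the size of this value is uncertain. The median change of the 43 genes was 0.03, 0.01 and 0.08 on the log2 scale. A change of pausing in a single member was not detectable with all 9 libraries.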

How the data were processed

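Nascent RNA labelled with 5-ethynyl uridine was sequenced as paired reads of 100 bases in 9 libraries of mouse CD8+ T cells, grouped by their titles into acute, chronic and MEK-inhibited chronic stimulation (3 each). Per the submitters' processing notes, the tools were FastQC 0.12.0, Trim Galore 0.6.10, STAR 2.7.0a, SAMtools 1.19.2, deepTools 0.1.9 and R 4.1.2, with the build mm10. The authors deposited 2 tables of signal per transcript, read here as gene body (GB) and pause region (PR). The limits of these regions, the annotation used and any use of strand are not given in the sources used here. The deposited signal values are whole multiples of a step of 0.764 to 1.06 per library (tolerance 0.02 steps), but values of 4 steps (26623) outnumber those of 1 step (17790), so the step is not taken as a read, the depth in reads is unknown, and no count model was used.

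Of 118482 rows per table, 117346 matched a GENCODE M21 transcript with its version, 383 without it and 753 not, which gave 37022 genes. Of a gene's rows, the one with the highest gene-body mean over the 9 libraries was kept. Libraries were scaled by a trimmed mean of log ratios (30% of ratios and 5% of levels trimmed at each end). Genes whose deposited signal, before scaling, reached 50 in 3 or more libraries were tested. The test was limma 3.58.1 in R 4.3.3 on log2(scaled signal + 5), with 1 fit over the 9 libraries, a trend and robust variances. Adjustment was by Benjamini-Hochberg over all genes tested (threshold 0.05). Pausing was the log2 pause-region signal minus the log2 gene-body signal, fitted likewise. The step was tested on simulated data. Python 3.11.15, pandas 2.3.3, numpy 2.4.6, Biopython 1.88 and matplotlib 3.10.9 did the rest. Promoter sequences are from RefSeq (GRCm38.p6).

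The members and gene lists were chosen with earlier results of these data known. Values in every library are given for members called with a log2 fold change beyond 1 in a gene-body comparison and for 22 members set by name, and of each further list the 2 largest called rises and falls are named, apart from 1 gene that is not reported here. Alternatives were other scalings, pseudocounts of 0.5 and 20, no filter, the longest transcript's row, a fit of the compared groups alone, a replicate block, each library left out in turn and, chosen after seeing the data, members that overlap no other gene.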

Additional observations from a re-analysis of the deposited data

How the results depend on the processing

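Scaling had the largest effect. Under library totals and on the deposited scale, chronic against acute libraries had 13 members higher and 13 lower in each case (42.9 and 42.1% of all genes were lower), inhibited against chronic 16 and 13 lower (4.65 and 4.52%), and inhibited against acute 26 and 22 lower (31.1 and 28.5%). Totals without ribosomal RNA-like rows gave 5 lower in chronic and 12 lower in inhibited against acute libraries. Between chronic and acute libraries 3 members turned from positive to negative under totals without ribosomal RNA-like rows. Under library totals and on the deposited scale 20 members did so in each case. Those called before or after the change, with their log2 fold changes under library totals and on the deposited scale, were Canx (-0.22, -0.21), Cct7 (-0.021, -0.0043), Dnajb6 (-0.43, -0.41), Hspa5 (-0.060, -0.043), Hspa9 (-0.43, -0.42), Ptges3 (-0.20, -0.185), Stip1 (-0.089, -0.072) and Tcp1 (-0.18, -0.16). Between inhibited and acute libraries 15 and 14 members turned negative, of which those then called were Dnajb6 (-0.38), Pdia3 (-0.36, -0.32), Pdia6 (-0.38) and Ptges3 (-0.32). The cause was not tested.

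Without the filter, 1 member was lower in chronic and 4 lower in inhibited against acute libraries, and none was called in the pause region with the inhibitor, against chronic (0) or acute (0) libraries. In the pause region, inhibited against chronic libraries had 0 called under library totals and 2 with a pseudocount of 0.5. Of the 26 members that overlap no other gene, chosen after seeing the data, 16 were higher and 0 lower in chronic against acute, 0 higher and 12 lower in inhibited against chronic, and 6 higher and 3 lower in inhibited against acute libraries.

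Leaving out each library in turn gave 21 to 28 members higher and 1 to 4 lower (chronic against acute), 1 to 1 higher and 16 to 28 lower (inhibited against chronic), and 7 to 11 higher and 4 to 8 lower (inhibited against acute). In the pause region it gave 6 to 9, 0 to 6 and 0 to 2 called, and for pausing 0 to 1, 0 to 0 and 0 to 1.

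Deviations from the group mean correlated at -0.53 to 0.10 between same-numbered libraries of different groups. Between differently numbered ones they correlated at -0.37 to 0.51, so the numbers are not shown to pair the libraries. With replicate number as a block, 30 members were higher and 4 lower (chronic against acute), 1 higher and 27 lower (inhibited against chronic) and 12 higher and 8 lower (inhibited against acute), with 9, 5 and 1 called in the pause region and 0, 0 and 0 for pausing. Depth in reads is unknown, so the counting error of low pause-region values could not be estimated.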
